A study of Mus musculus with 21 samples.

Results

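The contractile genes of the intestinal muscle layers were followed as 10 members chosen by gene symbol, out of 21441 genes in each deposited table. All 10 were found. They are the actins Actg2, Acta2 and Acta1, the myosin heavy chain gene Myh11, the thin-filament genes Cnn1, Tagln, Smtn and Lmod1, and the intermediate filament genes Des and Synm. The rule takes symbols and no measured value, but the list was drawn up with earlier results of these data known.

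Smooth muscle cells of the gut wall shorten when myosin filaments pull on actin filaments, a step set off by calcium and by phosphorylation of the myosin light chain. In the intestine these cells form the circular and longitudinal muscle coats and the thin muscularis mucosae, and their contraction mixes and propels the contents. Many of their genes are switched on together by serum response factor and its partner myocardin, which act through a short DNA element named the CArG box. Epithelial cells lack most of these proteins.

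RNA was measured by sequencing in 21 samples of C57BL6J mice, from the colon and the ileum. The treated group (3 colon, 3 ileum samples) and the uninjected group (4 colon, 3 ileum samples) were CDX2-VDR transgenic mice, which lack their own vitamin D receptor (VDR) and carry human VDR under a CDX2 promoter, active in the distal intestine. Treated mice received 3 injections of 1,25-dihydroxyvitamin D3 (1,25D3, the hormone that VDR binds) at 1 ng per g of body weight, 48, 24 and 6 h before the end. The KO group (4 colon, 4 ileum samples) was Villin-CreERT2 VDR f/f, in which a tamoxifen-inducible Cre driven by the villin promoter removes VDR from epithelial cells. The villin promoter is not active in muscle, so the label does not state a loss of VDR in the cells that use the 10 genes.

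The KO and transgenic mice differ in how VDR was lost, in the transgene and possibly in tamoxifen, and these cannot be told apart, nor can 1,25D3 and the injection. All 6 treated and 8 KO samples were labelled male, against 5 of 7 uninjected samples labelled female. Treated samples were aged 9 weeks, uninjected ones 9 or 10 weeks, and KO samples 9 weeks (2 samples) or 11 weeks (6 samples), so age differed between the groups too. The labels name no animal, so p-values measure the spread between these samples, which may be partly technical. The deposited unit is FPKM (reads scaled by transcript length and library size, as the authors computed it), scaled separately in each of the 6 tables, and groups were compared only within a table. At least 8109404 to 32296297 reads per colon library and 10485506 to 35306946 per ileum library could be recovered from the FPKM steps. Read counts of 8 members came out whole, with a lowest count of 30, for Acta1 in 1 treated colon library. Vdr itself stood at 20.7 to 39.9 FPKM in treated and 22.1 to 24.9 FPKM in KO colon, and at 13.4 to 22.6 FPKM in treated and 20.3 to 22.2 FPKM in KO ileum. These groups overlapped, as did uninjected colon (12.7 to 34.0 FPKM) and KO colon (20.6 to 23.5 FPKM in the same table). In the ileum the ranges of the uninjected group did not overlap the others, with 22.1 to 24.9 FPKM in uninjected and 19.3 to 21.0 FPKM in KO ileum, and 12.3 to 21.2 FPKM in treated and 21.4 to 24.4 FPKM in uninjected ileum. Reads of the human transgene were not told apart.

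The tissue is labelled as intestinal epithelium. Epithelial markers were high in all libraries: Epcam, an adhesion protein of epithelial cells, ranged from 653 to 1286 FPKM in the 11 colon libraries and from 740.5 to 1856 FPKM in the 10 ileum libraries. The 10 muscle genes were nevertheless present in every library, with a summed level of 1416 to 1750 FPKM in treated colon against 2334 to 3290 FPKM in KO colon. In the ileum the sum was 823 to 2797 FPKM in treated against 1127 to 1898 FPKM in KO libraries. The libraries therefore held RNA of muscle as well as of epithelium. In bulk RNA, fewer muscle cells and less RNA per muscle cell cannot be told apart.

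FPKM is scaled by transcript length, so levels of different genes can be set side by side, with limits. The balance of long and short transcripts changed between libraries, as described further on. Within KO colon the ratio of Myh11 to Actg2 ran from 0.232 to 0.371. How reads shared by several actins were counted is not stated. In KO colon the order ran from Tagln, an actin-binding protein of smooth muscle, at 791 ± 152 FPKM through Actg2, the gamma actin typical of enteric smooth muscle, at 599.6 ± 68.7 FPKM to Acta2, the alpha actin of smooth muscle, at 413 ± 67.3 FPKM (SD, n = 4 each). Des, the muscle intermediate filament protein desmin, followed at 329.6 ± 56.6 FPKM, then Cnn1, the actin-binding protein calponin, at 301 ± 47.0 FPKM and Myh11, the smooth muscle myosin heavy chain, at 170.5 ± 43.7 FPKM. Synm (the intermediate filament protein synemin), Smtn (smoothelin, which binds actin) and Lmod1 (leiomodin, which starts new actin filaments) lay at 25.3 ± 4.68, 20.9 ± 4.56 and 17.3 ± 3.14 FPKM. Acta1, the alpha actin of skeletal muscle, was last at 7.17 ± 2.14 FPKM. Of the 9 neighbouring pairs in this order, 5 had ranges that did not overlap, namely Tagln over Actg2, Actg2 over Acta2, Cnn1 over Myh11, Myh11 over Synm and Lmod1 over Acta1.

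In KO ileum Tagln was again first (336 ± 91.2 FPKM), followed by Actg2 (291 ± 93.7 FPKM) and Acta2 (241 ± 53.3 FPKM). Acta1 stood between Des and Cnn1 there at 109.5 ± 45.9 FPKM, with Cnn1 at 104.6 ± 34.2 FPKM (SD, n = 4 each). Only Myh11 and Synm were neighbours whose ranges did not overlap. In the uninjected groups of both tissues the ranges of every neighbouring pair overlapped.

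Treated colon held less of the muscle genes than KO colon in all 10 members, where 51.0% of all genes tested were lower, but no member passed the test. Actg2 measured 349, 287 and 343 FPKM in the 3 treated samples, against 529.6, 688, 686 and 648 FPKM in the 4 KO libraries. Every treated library lay below every KO library. The means were 327 ± 34.0 FPKM in treated and 638 ± 74.5 FPKM in KO colon (SD, n = 3 and 4), a log2 difference of -0.96 with a standard error (SE) of 0.19. The adjusted p was 0.122 by limma on log2(FPKM + 0.5), adjusted after Benjamini and Hochberg over 12505 genes, above the threshold of 0.05. In this comparison 0.296% of all genes tested were called (37 genes).

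Acta2 had 315, 196 and 268 FPKM in treated, against 368, 479, 521.7 and 388 FPKM in KO colon. Its groups did not overlap either (log2 difference -0.77, SE 0.23, limma adjusted p = 0.421). Acta1 had 8.71, 2.21 and 4.11 FPKM in treated, against 5.68, 10.8, 7.56 and 6.46 FPKM in KO colon, and its groups overlapped. Myh11, the motor of the filament, had 95.7, 46.0 and 118 FPKM in treated, against 133, 193, 159 and 240.2 FPKM in KO colon. Its groups were apart, and its log2 difference of -1.13 (SE 0.34, limma adjusted p = 0.423) was the lowest of the 10.

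Among the thin-filament genes, Cnn1 had 157, 198 and 180.1 FPKM in treated, against 257, 346, 374.5 and 306 FPKM in KO colon (log2 difference -0.84, limma adjusted p = 0.222). Tagln had 546, 363 and 425 FPKM in treated, against 708, 917, 1039.8 and 704 FPKM in KO colon (log2 difference -0.92, limma adjusted p = 0.307). Both genes had all treated libraries under all KO libraries. Lmod1 stood at 11.6, 11.6 and 12.0 FPKM in treated, against 13.7, 18.5, 21.7 and 19.7 FPKM in KO colon, also without overlap. Smtn overlapped, with 20.6, 23.2 and 12.0 FPKM in treated, against 18.1, 23.7, 28.6 and 18.5 FPKM in KO colon.

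Of the intermediate filament genes, Synm had 9.58, 13.9 and 15.8 FPKM in treated, against 20.6, 28.1, 26.3 and 32.7 FPKM in KO colon. Its log2 difference was -1.02 (SE 0.23, limma adjusted p = 0.184), and the groups were apart. Des had 237, 274 and 178 FPKM in treated, against 281, 372, 425 and 326 FPKM in KO colon, where its highest treated library came close to its lowest KO library.

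**Figure D1:**
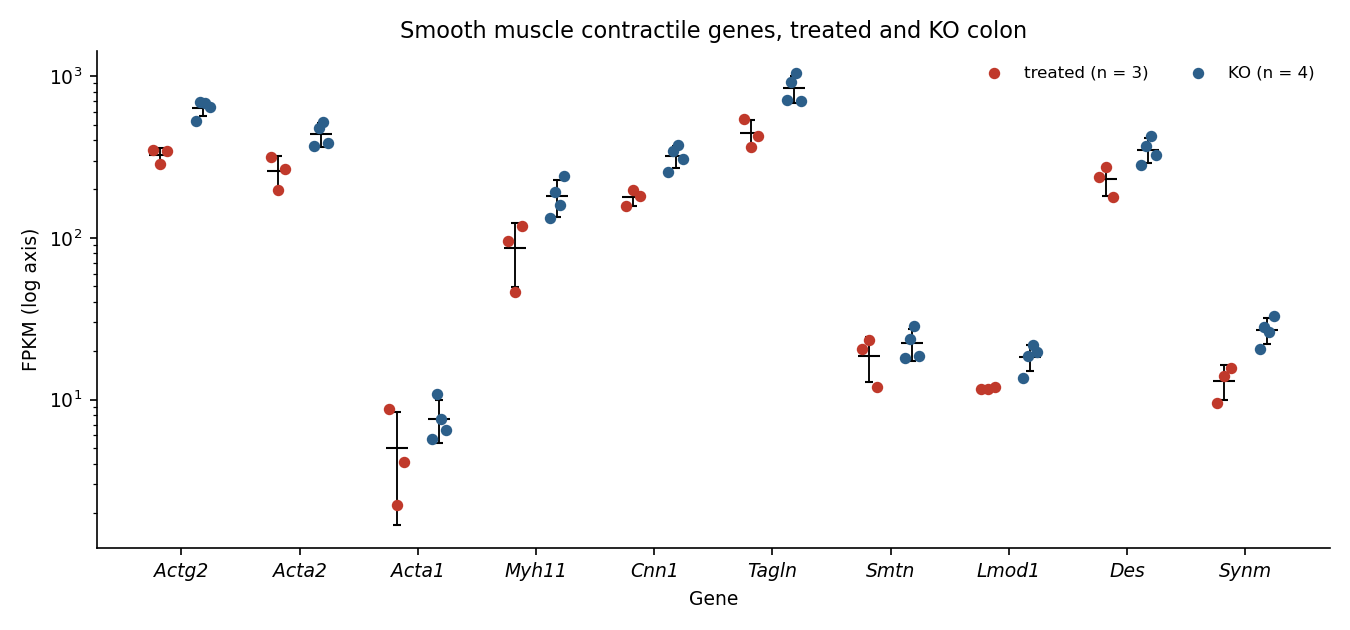
FPKM of the 10 genes (log axis) in the 3 treated and 4 KO colon libraries. Each point is a library, and the black bars give the mean and SD. For 8 genes every treated library lies below every KO library, and for Acta1 and Smtn the groups overlap.

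In all, 8 of the 10 members had groups that did not overlap, each of them lower in treated colon, against 3.89% of all genes tested. An unadjusted p under 0.05 was reached by 8 of 10 members, against 7.31% of all genes. The median log2 difference of the members was -0.80, against -0.01 over all genes tested. KO library 1, the only KO colon sample aged 9 weeks like the treated ones, was the lowest KO library for 9 of 10 members. The part of age in the difference was not tested. Most members rise and fall together between the KO and between the uninjected colon libraries, and less so between the treated ones. Their counts are therefore not separate pieces of evidence. All 10 differences stayed below 0 without the KO library rich in pancreatic transcripts, described further on. That fit kept treated library 4, which was rich in pancreatic transcripts too. A fit without either of these libraries was not run, so the part of pancreatic transcripts was only partly checked. The sign of Smtn turned when treated library 4 was left out (log2 difference 0.00), and the other 9 kept theirs with any 1 library left out.

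Genes that work beside the 10 members were given as lists. Of 18 other genes of the contractile apparatus, none was called and 14 were lower in treated colon (median -0.33). Myl9, the regulatory light chain of smooth muscle myosin, averaged 316 ± 64.6 FPKM in treated and 562 ± 115 FPKM in KO colon (SD, n = 3 and 4, log2 difference -0.83, limma adjusted p = 0.365). Of 14 genes of excitation and relaxation, 9 were tested, 8 of them lower (median -0.33) and none called. The lowest p belonged to Chrm3, the muscarinic receptor through which acetylcholine contracts smooth muscle. Its means were 0.433 FPKM in treated and 2.05 FPKM in KO colon (log2 difference -1.45, limma adjusted p = 0.0508). The treated mean was near the floor, below the 0.5 FPKM added before taking logs. Of 9 transcription regulators of muscle, 7 were tested, 5 of them higher (median 0.11) and none called. Among 3 genes of interstitial cells of Cajal, the pacemaker cells of the gut, none was called, and Ano1, their chloride channel, had means of 18.8 FPKM in treated and 35.6 FPKM in KO colon (limma adjusted p = 0.614).

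Markers of other cell types of the wall went in both directions. All 8 fibroblast markers were higher in treated colon (median 0.49, summed level 517 to 1709 FPKM in treated and 422 to 519 FPKM in KO), and 8 of the 10 tested markers of enteric neurons and glia were higher (median 0.13). The sign of the muscle genes was shared by 8 of the 10 epithelial markers, which were lower (median -0.37, summed level 9084 to 13871 FPKM in treated and 11299 to 15577 FPKM in KO). It was also shared by 5 of 6 endothelial markers tested (median -0.27) and 2 of 3 markers of interstitial cells of Cajal (median -0.25). Leukocyte markers were higher in 5 of 6 (median 0.56) and pericyte markers in 3 of 5 tested (median 0.29). None of these marker genes passed the test, and their part in the difference of the muscle genes was not tested.

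The 12 pancreatic acinar markers mark tissue from outside the gut wall, and in the colon they separated single libraries rather than groups. Their summed level was 12985 FPKM in treated colon library 4, and 68.9 and 174 FPKM in libraries 1 and 2. In KO colon it was 29601 FPKM in library 2, against 83.3 to 632 FPKM in libraries 1, 3 and 4, and 84629 FPKM in uninjected library 3, against 53.0 to 455 FPKM in the other uninjected libraries. In treated against KO ileum all 12 were higher (median 1.85, against 0.00 over all genes) and none was called. Their summed level was 445 to 552 FPKM in treated and 234 to 464 FPKM in KO ileum, which overlapped. In uninjected against KO ileum 11 of the 12 were higher (median 0.96) and none was called.

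No member passed the test between uninjected and KO colon, and the uninjected libraries differed among themselves more than the groups did. Actg2 had 1900.0, 1319, 143 and 523 FPKM in uninjected libraries 1 to 4, against 499.8, 649.5, 639.6 and 609 FPKM in the KO libraries. Libraries 1 and 2 lay above all KO libraries and library 3 below all of them, so the groups overlapped. Its log2 difference was 0.14 (SE 0.69), and none of 10 members was called by limma, or reached an unadjusted p under 0.05, where 0.0804% of all genes tested were called and 4.60% reached that p. Voom, a limma fit on the recovered reads, called none of the 8 members whose reads came out whole. It could not be run on Myh11 and Smtn.

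Uninjected library 1 was the highest of its group for 9 of 10 members, with deviations from the group mean between 0.35 (Synm) and 1.53 (Actg2) on the log2 scale. Uninjected library 3 was the lowest for 8 of 10, with deviations from -2.27 (Myh11) to -0.01 (Acta1). Library 3 is also the library with the high acinar markers. Tagln had 2445, 1864, 196 and 597 FPKM in uninjected libraries 1 to 4, against 668, 865, 969.9 and 662 FPKM in KO. Des had 1221, 801, 132 and 253 FPKM in uninjected, against 265, 351, 396 and 306 FPKM in KO. Cnn1 had 1066, 703, 106 and 245 FPKM in uninjected, against 242, 327, 349 and 287 FPKM in KO. Each of these 3 genes showed the same picture as Actg2, with libraries 1 and 2 high, 3 low and 4 near or under the KO range.

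The genes with the longest transcripts did not follow that picture in full. Myh11 had 223, 155, 22.3 and 187 FPKM in uninjected, against 125.1, 182, 149 and 226 FPKM in KO colon. Synm had 22.9, 30.0, 6.64 and 21.8 FPKM in uninjected, against 19.4, 26.5, 24.6 and 30.7 FPKM in KO colon. For both genes uninjected library 3 was low, while libraries 1 and 2 lay within or at the KO range. Acta1 ranged from 6.20 to 10.8 FPKM in uninjected and from 5.36 to 10.2 FPKM in KO colon. Its SD on the log2 scale was the lowest of the 10 members within the uninjected group (0.31) and the highest within the KO group (0.38). The median SD of the members within the uninjected group was 1.49 on the log2 scale, against 0.55 for all genes, and it was 0.27 within the KO group, against 0.20 for all genes. Without uninjected library 3 and KO library 2 the log2 difference of Acta2 was 0.67, against -0.05 with them, and no member was called.

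**Figure D2:**
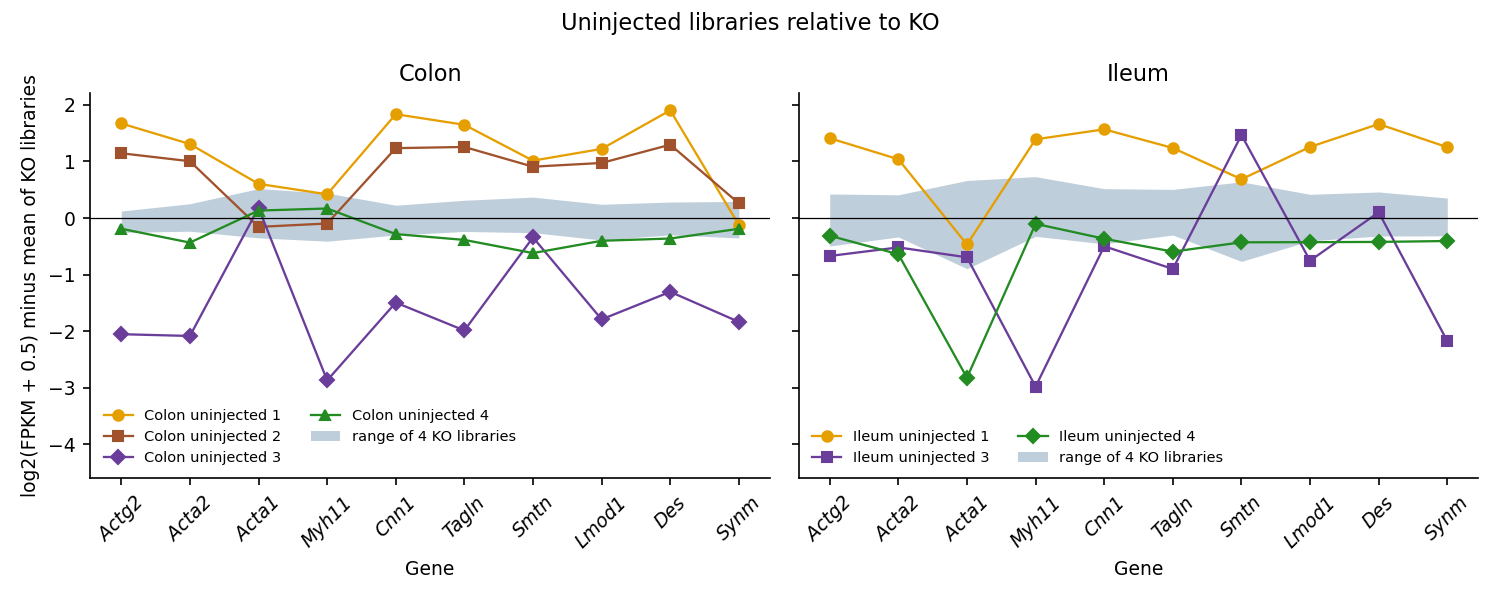
log2(FPKM + 0.5) of the 10 genes in each uninjected library minus the mean of the KO libraries of the same table, in colon (left) and ileum (right). Each line is a library and the blue band is the range of the 4 KO libraries. Uninjected colon libraries 1 and 2 run above the band for Actg2, Cnn1, Tagln and Des and library 3 runs below it, and in the ileum library 1 runs above it for all members except Acta1.

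In treated against uninjected colon, all 10 members had a log2 difference below 0 (median -0.80, against -0.01 over all genes) and none was called. All 10 overlapped between the groups, whereas 1.37% of all genes did not. Actg2 averaged 309 FPKM in treated and 980.3 FPKM in uninjected colon, with a log2 difference of -1.10 and an SE of 0.79. Of 12567 genes limma called 0 (0%), and 1.14% (143 genes, none of them a member) had an unadjusted p under 0.05. The share of all genes with a difference below 0 was 50.8%. This comparison shares its treated libraries with treated against KO colon, and the common sign is not a second observation. The uninjected libraries differed here as they did in the table with KO.

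In the ileum 1 member was called. Acta1 had 3.62, 4.64 and 16.0 FPKM in treated libraries 1, 2 and 4, against 97.9, 134, 169 and 57.3 FPKM in the 4 KO libraries. Every treated library lay far below every KO library. The means were 8.09 ± 6.86 FPKM in treated and 115 ± 48.1 FPKM in KO ileum (SD, n = 3 and 4). The log2 difference was -3.92 (SE 0.52, limma adjusted p = 0.0422 over 11974 genes). In this comparison 0.0835% of all genes tested were called (10 genes), and 0.0251% were called as lower (3 genes). The recovered reads of Acta1 were 88, 110 and 528 in treated, against 2642, 4207, 3776 and 3817 in KO ileum, so counting error is small beside the difference.

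The size of this difference was stable but the call was not. With any 1 library left out it ranged from -4.53 to -3.53, and the adjusted p was above 0.05 without KO library 1, 2, 3 or 4 (0.0678 to 0.179) and without treated library 1 or 2 (0.192 and 0.185). It stayed under 0.05 only without treated library 4 (0.00244). The call was also lost under 5 other settings, given in the closing section.

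Acta1 lies at chr8:126415669-126418651 of mm9, on the minus strand, inside the span of Gm20388 on the other strand, and the sources used here do not state whether counting used strand. Its coding sequence is close to those of the other actins, and how reads shared by several actins were counted is not stated either. Neither of the other actins passed the test. Acta2 had 440, 232 and 126 FPKM in treated, against 238, 195, 331 and 246 FPKM in KO ileum, and Actg2 had 799, 269.6 and 226 FPKM in treated, against 233, 206, 395 and 388 FPKM in KO. Both overlapped between the groups, with log2 differences of -0.08 and 0.32. Of the summed FPKM of the 3 actins, Acta1 made up 0.292%, 0.918% and 4.35% in treated, against 17.2%, 25.0%, 18.9% and 8.28% in KO ileum. This share does not depend on the scaling of a library, and it too was lower in every treated than in every KO library. It was 5.61%, 15.5% and 3.56% in the uninjected ileum libraries 1, 3 and 4. In the colon it lay between 0.289% and 3.22% in all 11 libraries.

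**Figure D3:**
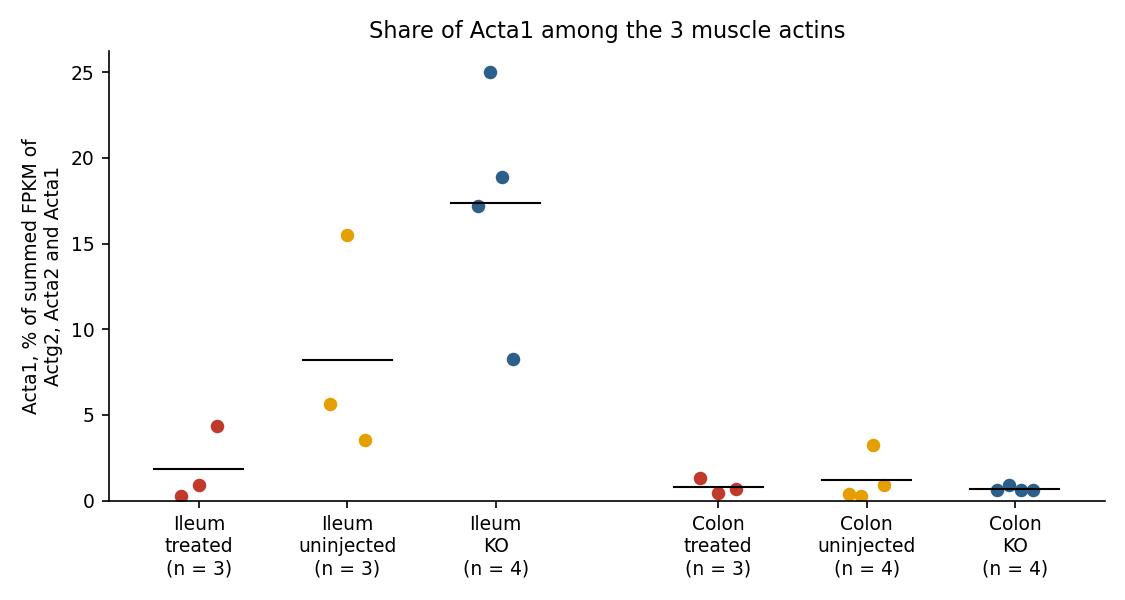
Acta1 as a percentage of the summed FPKM of Actg2, Acta2 and Acta1, by tissue and group. Each point is a library and each line the group mean. KO ileum libraries reach 8.28% to 25.0%, treated ileum libraries 0.292% to 4.35%, and colon libraries of every group stay at or under 3.22%.

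No marker of striated muscle was called beside Acta1. Of the 12 on the list 4 passed the level filter, and their median log2 difference was -0.27. The summed level of all 12 was 33.1, 14.0 and 4.34 FPKM in treated, against 15.8, 13.1, 22.9 and 13.7 FPKM in KO ileum. Much of it came from the marker Ckm, with means of 12.1 ± 12.4 FPKM in treated and 11.1 ± 3.76 FPKM in KO ileum (SD). The 2 groups overlapped, and treated library 1, lowest for Acta1, had the highest sum.

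Because Acta1 and Acta2 went apart, the DNA before their start sites is shown, from RefSeq's GRCm38.p6 promoters. Capitals mark a match to the CArG box, which reads CC, then 6 letters that are A or T, then GG, and reads alike on both strands. Each sequence is the 250 bases before the start, 5′ to 3′ on the gene's strand, at chr8:123894776-123895025 (minus strand) for Acta1 and chr19:34255374-34255623 (minus strand) for Acta2.
Acta1: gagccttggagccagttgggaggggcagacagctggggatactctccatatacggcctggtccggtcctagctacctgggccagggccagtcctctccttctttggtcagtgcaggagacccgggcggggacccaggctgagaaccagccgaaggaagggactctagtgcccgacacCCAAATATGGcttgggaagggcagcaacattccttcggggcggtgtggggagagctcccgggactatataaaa
Acta2: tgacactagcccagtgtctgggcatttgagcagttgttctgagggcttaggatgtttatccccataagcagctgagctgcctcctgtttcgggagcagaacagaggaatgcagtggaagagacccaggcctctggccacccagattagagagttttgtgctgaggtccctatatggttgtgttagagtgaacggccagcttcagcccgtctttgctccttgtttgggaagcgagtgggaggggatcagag

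Acta1 had a box that begins 73 bases before its start site, and Acta2 had no exact match in this window. Stretches 1 letter off the pattern stand in both sequences and are not marked. They include ccctatatgg and ccttgtttgg in Acta2 and ccatatacgg in Acta1, so the contrast holds for the exact pattern only. Promoters were listed for 7 members, and of these Acta1 was the only one with an exact match over 250 bases before to 50 bases after the start. Of 32851 promoters of that length, 1.63% held one. A match is a description of the letters and not evidence of binding, and the absence of one in this window says nothing about the factor.

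None of the other 9 members passed the test between treated and KO ileum, with log2 differences from -0.94 (Synm) to 0.62 (Smtn). Synm, the only other member whose groups were apart, had 6.69, 11.9 and 6.46 FPKM in treated, against 12.9, 12.6, 19.0 and 20.6 FPKM in KO ileum (log2 difference -0.94, SE 0.31, limma adjusted p = 0.939). The share of all genes apart and lower was 1.97%. Myh11 had 42.3, 66.2 and 48.1 FPKM in treated, against 67.5, 65.3, 75.5 and 138 FPKM in KO ileum, where 1 treated library reached the KO range. Des had 569, 173 and 121 FPKM in treated, against 142, 137, 237 and 189 FPKM in KO, with treated library 1 high and 4 low. Treated library 1 was the highest of its group for 7 of 10 members and library 4 the lowest for 7. Over the 10 members 5 differences were above 0 and 5 below (median -0.03, against 0.00 over all genes).

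No member passed the test between uninjected and KO ileum. Acta1 had 73.2, 62.5 and 13.9 FPKM in uninjected libraries 1, 3 and 4, against 94.0, 129, 161 and 54.4 FPKM in the KO libraries. The groups overlapped through KO library 4 (log2 difference -1.33, SE 0.59, limma adjusted p = 0.665). Actg2 had 744, 176 and 225 FPKM in uninjected, against 223, 198, 376 and 368 FPKM in KO. Myh11 had 207, 9.53 and 73.2 FPKM in uninjected, against 64.8, 62.8, 71.8 and 131 FPKM in KO. Library 1 lay above the KO range for both and library 3 below it. Smtn ran the other way in library 3, with 13.0, 22.6 and 5.72 FPKM in uninjected, against 8.68, 7.85, 12.5 and 4.42 FPKM in KO. Uninjected library 1 was the highest of its group for 9 of 10 members. By limma 0 of 10 members were called and 0 reached an unadjusted p under 0.05. Of all genes 0.00846% were called (1 gene) and 5.42% reached that p. Voom called none of the 8 members it could be run on.

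In treated against uninjected ileum no gene was called (0% of 11815), with 97 genes at an unadjusted p under 0.05, or 0.821%. Acta1 was the one member among them, with 3.32, 4.31 and 15.0 FPKM in treated, against 70.9, 60.4 and 13.6 FPKM in uninjected ileum. Treated library 4 lay just above uninjected library 4, so the groups overlapped (log2 difference -2.59, SE 0.75). Its 3 comparisons in the ileum share libraries and are not independent. Among the other 9 members the differences lay between -0.50 (Synm) and 0.17 (Actg2).

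**Figure D4:**
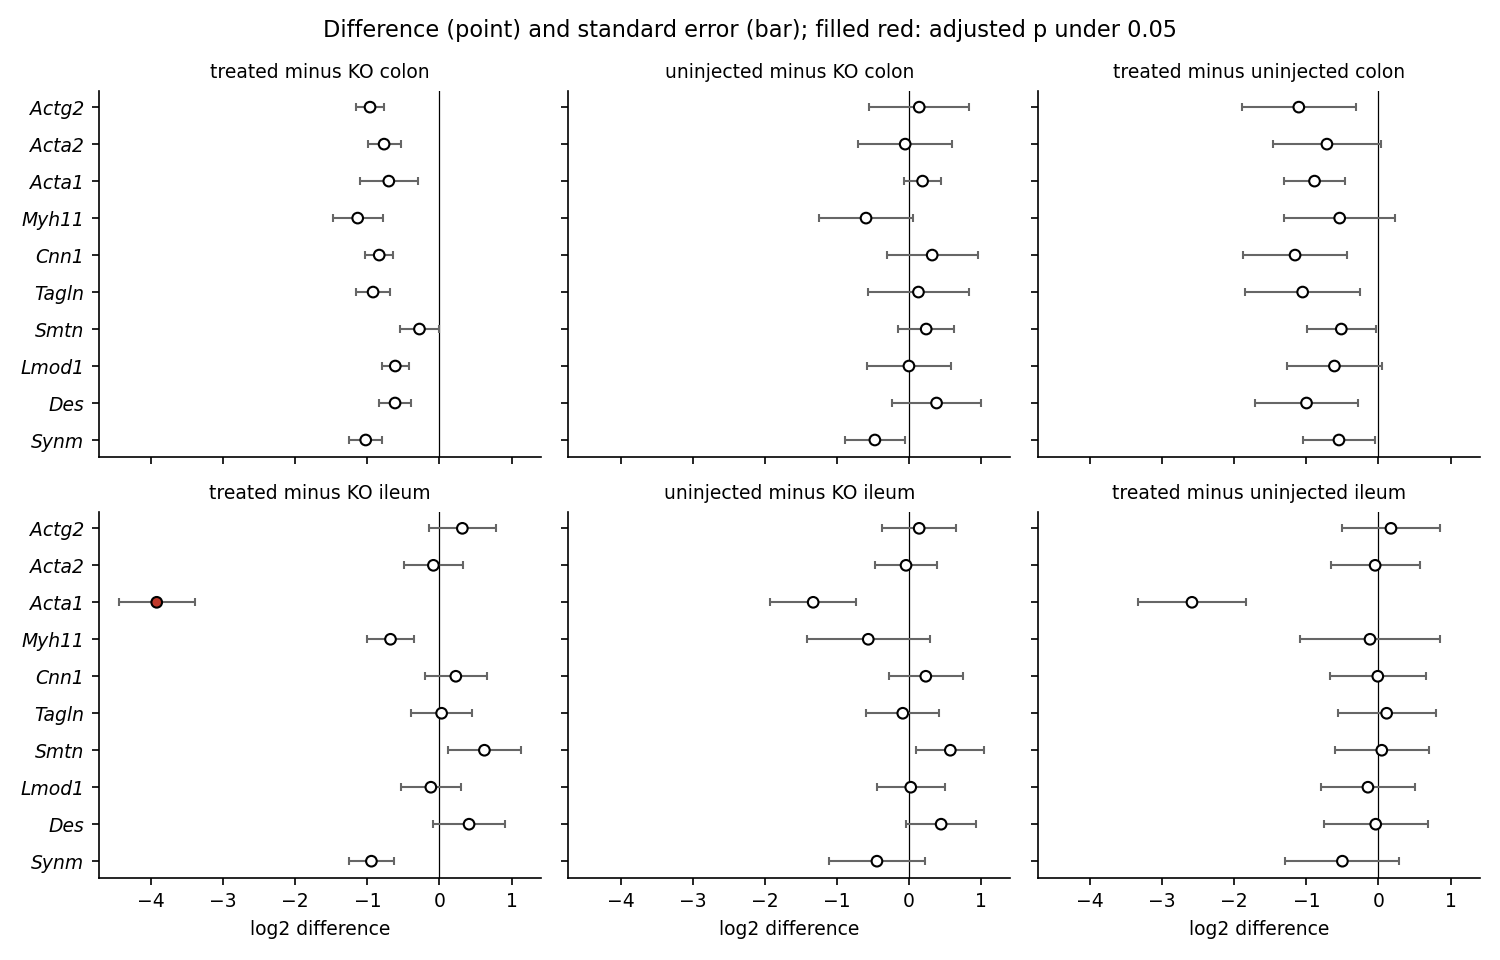
Log2 difference (point) and standard error (bar) of each gene in the 6 comparisons, from limma on log2(FPKM + 0.5). A filled point has an adjusted p under 0.05. Points lie left of 0 for all 10 genes in treated minus KO colon, and only Acta1 in treated minus KO ileum, at -3.92, is filled.

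No member's effect was shown to differ between the tissues. For treated against KO, the Acta1 effect was -3.92 in the ileum and -0.70 in the colon, a difference of -3.22 (SE 0.72, limma adjusted p = 0.351). Actg2 had an effect of 0.32 in the ileum and -0.96 in the colon, a difference of 1.28 (SE 0.53, limma adjusted p = 0.977). In this test 0.00803% of all genes were called. None of 10 members was called in it for uninjected against KO or treated against uninjected, where 0.00809% and 0% of all genes were.

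The balance of long and short members changed between libraries. The longest annotated transcripts of Myh11 and Synm have 6632 and 7866 bases, against 1333 for Actg2 and 3028 for Des. The ratio of Myh11 to Actg2 was 0.117, 0.118, 0.156 and 0.358 in uninjected colon libraries 1 to 4, against 0.250, 0.281, 0.232 and 0.371 in KO colon. In the ileum it was 0.278, 0.0543 and 0.325 in uninjected libraries 1, 3 and 4, and 0.290, 0.316, 0.191 and 0.355 in KO. It was 0.0529, 0.245 and 0.213 in the treated ileum libraries.

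Over all genes, the median deviation of transcripts longer than 5000 bases minus that of transcripts shorter than 2000 bases was used as a measure of the same balance. It was -0.55, -0.62, -0.34 and 0.64 in uninjected colon libraries 1 to 4, against 0.07, 0.24, -0.15 and 0.66 in KO colon. In the ileum it was lowest in uninjected library 3 (-1.02) and, in the table with KO, in treated library 1 (-0.97). Within the ileum these 2 libraries had the lowest ratios of Myh11 to Actg2 and of Synm to Des (0.0169 and 0.0118). Treated ileum library 4 departed from this order, with the highest measure of its table with KO (0.66) and a ratio of Myh11 to Actg2 of 0.213, below the 0.290 of KO library 1, whose measure was 0.05. With the trend on transcript length removed, a setting chosen after seeing the data, the log2 difference of Myh11 was -1.06 in treated against KO colon and -0.58 in treated against KO ileum, against -1.13 and -0.68 without that step.

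**Figure D5:**
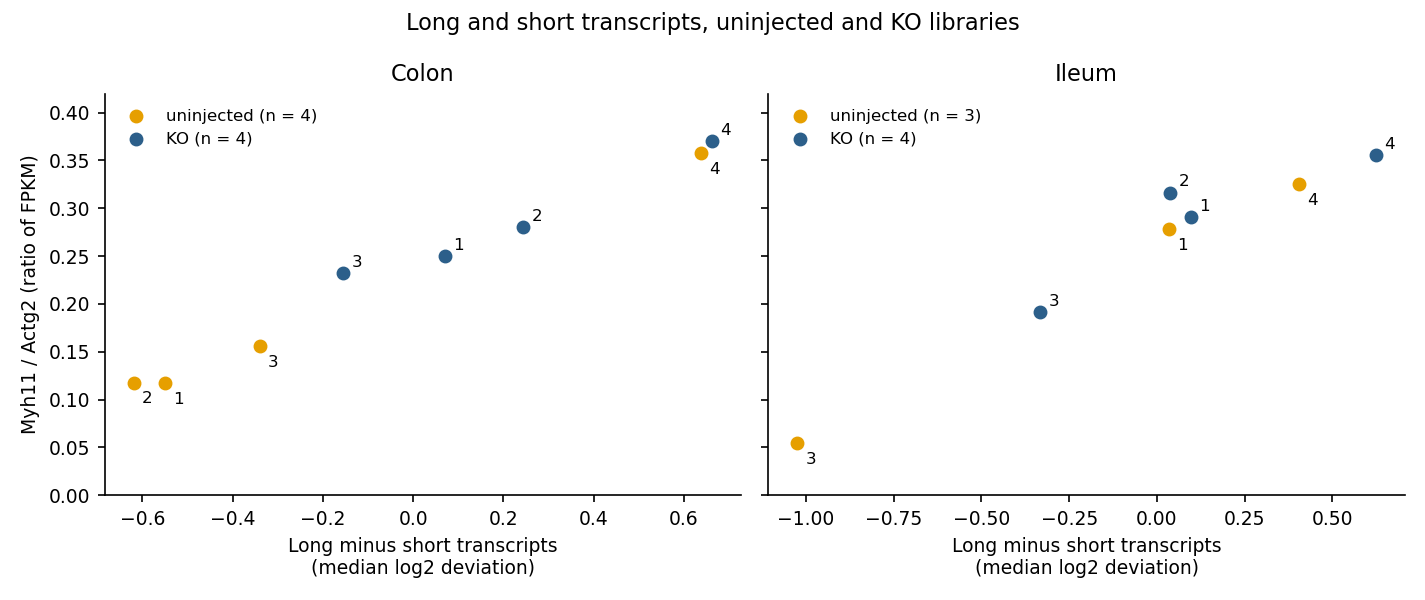
Ratio of Myh11 to Actg2 (FPKM over FPKM) against the log2 difference of long and short transcripts over all genes, for uninjected and KO libraries of each tissue. Each point is a library with its number. Treated libraries are not plotted. Among those shown, libraries far to the left have low ratios, down to 0.0543 in uninjected ileum library 3, and those farthest to the right have the highest.

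The genes outside all lists whose centred values lay closest to the mean of the 10 members were named as a description. In the colon, over 11 libraries in 3 tables and 12097 genes, they were Popdc2, Lims2, Wfdc1, Pcp4l1 and Mustn1, with root-mean-square differences of 0.167, 0.185, 0.199, 0.206 and 0.216 on the log2 scale. The median over all those genes was 0.821. Popdc2 had 16.4, 14.1, 1.75 and 4.59 FPKM in uninjected colon libraries 1 to 4, against 4.36, 6.09, 7.38 and 5.54 FPKM in KO colon, the order also seen for Actg2 in the uninjected libraries. In the ileum, over 10 libraries and 11509 genes, they were Bend5, Grb14, Ndn, Speg and Pcp4l1, with differences of 0.196, 0.196, 0.202, 0.214 and 0.225, against a median of 0.753. Among the members themselves Lmod1 was closest to the mean in the colon (0.156) and Acta2 in the ileum (0.236). Acta1 was the farthest member in both tissues (0.709 and 1.56).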

How the data were processed

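The deposited FPKM values were computed by the authors per gene, in 6 tables of 21441 genes with 2 groups of 1 tissue each. Per the labels' protocols, poly(A) libraries were mapped with CLC Genomics Workbench. Further names in the submitters' processing notes are mm9, DESeq2, DESeq (version 1.14.0) and kallisto (version 0.45.0), without a stated use. No source used here states strand or multi-mapping settings. The design text counts 3 uninjected and 4 treated colon samples, while the labels, which were followed, count 4 and 3. Columns of the treated groups and of uninjected ileum are tied to a group, not to a single sample, and are named by their number.

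Each pair of groups was tested within its table on the log2(FPKM + 0.5) scale by limma 3.58.1 (R 4.3.3, intensity trend, two-sided, Benjamini-Hochberg over all genes tested, threshold 0.05), over genes averaging 1 FPKM or more. All 10 members passed this filter in every table. This scale understates changes of low genes. Where low FPKM values are multiples of 1 step, reads were recovered (tolerance 0.01), whole for 82.89% of colon and 82.47% of ileum genes above 0. Replicate libraries differed by more than sampling noise. Members and lists were chosen with earlier results of these data known. All members are named, along with up to 3 genes of smallest p from each of 13 other lists and the 5 genes most like the members per tissue. Overlap of groups refers to the libraries' FPKM. Fits were tested on simulated data. Coordinates are those of the mm9 annotation (GENCODE M1), except promoters (RefSeq, GRCm38.p6). Tables and plots were made with Python 3.11.15, pandas 2.3.3 and matplotlib 3.10.9.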

Additional observations from a re-analysis of the deposited data

Results flagged for a closer look

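Myh11 in KO ileum library 4 stood apart from the other KO ileum libraries, with 138 FPKM in the table shared with the treated group and 130.9 FPKM in the table shared with the uninjected group. In both tables its gap to the next library was a larger part of the group's range (0.859 and 0.867) than Dixon's 95% critical value for 4 samples. The 2 tables hold the same library on different scales. In all 60 sets of 4 libraries were examined, of which 2 held such a library, and chance alone flags about 1 in 20. Library 4 also had the highest balance of long over short transcripts among the KO ileum libraries (0.57 in the table with the treated group), and the part of this in the Myh11 value was not tested.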

How the results depend on the processing

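The call of Acta1 in treated against KO ileum was the one result whose count changed. The number of members called there was 1 and became 0 with a pseudocount of 0.1 (adjusted p of Acta1 0.0599), with no filter on low values (0.103), with 3 groups in 1 fit (0.102), with voom on recovered reads (0.124) and with the transcript length trend removed (0.0836), a setting chosen after seeing the data. With 1 library left out it ranged from 0 to 1. Its log2 difference stayed between -4.53 and -3.53 over all these settings. In the other 5 comparisons and the 3 tests between tissues, 0 members were called under every setting run.

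Over all genes, calls varied by more than 1.5 times with some settings. Leaving out 1 library gave 17 to 49 calls in treated against KO colon (37 with all libraries), 2 to 68 in uninjected against KO colon (10), 0 to 4 in treated against uninjected colon (0), 3 to 14 in treated against KO ileum (10) and 0 to 5 in uninjected against KO ileum (1). With 3 groups in 1 fit the counts were 20, 7 and 4 in the colon and 4, 1 and 2 in the ileum, in the order treated against KO, uninjected against KO and treated against uninjected. Without KO library 2 and uninjected library 3, the libraries richest in acinar transcripts, they were 17, 3 and 4 in the colon. The first of these comparisons holds only KO library 2 of the pair, and the last only uninjected library 3. Treated library 4, also rich in acinar transcripts, was kept in. With voom they were 5 in treated against KO ileum and 0 in uninjected against KO ileum. In the last comparison 2 genes were called with a pseudocount of 0.1, with a mean of at least 5 FPKM and with the length trend removed, and without a filter 1 gene was called in treated against uninjected colon.

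Signs turned among differences that had not passed the test, none of them larger than 0.595 on the log2 scale as first fitted. In treated against KO colon 9 of 10 members, and in treated against uninjected colon all 10, kept their sign under every setting run. Voom could not be run on Myh11 and Smtn. In uninjected against KO colon the log2 difference became -0.015 for Lmod1 with a pseudocount of 0.1. It became -0.085 for Actg2, -0.13 for Tagln and -0.078 for Lmod1 with quantile normalization, and -0.028 for Actg2 with the length trend removed. Without both acinar libraries it became 0.67 for Acta2, 0.21 for Myh11 and 0.0096 for Synm. In treated against KO ileum Tagln became -0.010 with the length trend removed. In uninjected against KO ileum quantile normalization gave -0.11 for Actg2 and -0.022 for Cnn1. In treated against uninjected ileum it gave 0.16 for Acta2, 0.15 for Cnn1 and 0.20 for Des, and removal of the length trend gave 0.036 for Acta2 and 0.037 for Cnn1. Without uninjected library 1 and treated library 1 together, the libraries highest in most members and a setting chosen after seeing the data, it gave 0.046 for Acta2, 0.16 for Cnn1, 1.00 for Myh11, -0.49 for Smtn, 0.073 for Lmod1 and 0.47 for Synm, and 0 members were called. The causes were not tested.

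With 1 library left out, Smtn ranged from -0.46 to 0.0019 in treated against KO colon. In uninjected against KO colon the range was -0.37 to 0.87 for Actg2, -0.51 to 0.63 for Acta2, -0.18 to 0.93 for Cnn1, -0.37 to 0.84 for Tagln, -0.93 to 0.16 for Myh11, -0.12 to 0.95 for Des, -0.019 to 0.53 for Smtn and -0.41 to 0.60 for Lmod1. In treated against KO ileum it was -0.25 to 0.66 for Actg2, -0.54 to 0.36 for Acta2, -0.28 to 0.51 for Cnn1, -0.40 to 0.50 for Tagln, -0.25 to 0.87 for Des and -0.52 to 0.35 for Lmod1. In uninjected against KO ileum it was -0.49 to 0.55 for Actg2, -0.58 to 0.26 for Acta2, -0.43 to 0.60 for Cnn1, -0.75 to 0.32 for Tagln, -1.54 to 0.64 for Myh11, -0.16 to 0.88 for Des, -0.59 to 0.41 for Lmod1 and -1.29 to 0.42 for Synm. In treated against uninjected ileum it was -0.38 to 0.80 for Actg2, -0.49 to 0.49 for Acta2, -0.50 to 0.65 for Cnn1, -0.31 to 0.77 for Tagln, -1.33 to 0.86 for Myh11, -0.69 to 0.57 for Des, -0.54 to 0.49 for Smtn, -0.54 to 0.47 for Lmod1 and -1.37 to 0.34 for Synm.

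Columns of both groups could be tied to replicate numbers only in uninjected against KO colon. There, samples numbered 1 to 4 had correlations of 0.004, -0.003, -0.006 and 0.67 in their deviations. No likeness was seen between samples sharing the number 1, 2 or 3, though larger differences between libraries could hide a pairing. KO library 4 was most like uninjected library 4. In every group of both tissues the library numbered 4 also had the highest balance of long over short transcripts. In the colon it was 0.66 in KO and 0.64 in uninjected library 4. What the libraries numbered 4 share was not tested. With the replicate block 0 members were called in uninjected against KO colon, as without it, and 3 genes in place of 10. No paired analysis was possible in the other comparisons because the numbers in the column names of the treated groups and of uninjected ileum do not match those of the sample titles. Groups of 3 or 4 libraries limit all tests, and depth limits mainly Acta1 in the colon.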
